A study of Homo sapiens with 12 samples.

Results

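The genes described here are the common partners of immunoglobulin translocations in multiple myeloma, with the D cyclins and the proteins that these cyclins act through. They are NSD2 (also called MMSET or WHSC1), FGFR3, MAF, CCND1, CCND2, CCND3, CDK4, CDK6 and CDKN2C. They were chosen by name, and all 9 were found in both deposited tables, among 61806 genes listed for LP-1 and 19130 for U266. LP-1 and U266 are established human cell lines of myeloma, a cancer of plasma cells, which secrete antibodies. Each line received dihydroartemisinin (DHA), the active form of the artemisinin antimalarials, at its IC50 for 12 h, or an equal amount of the solvent DMSO. The groups were LP-1 with DHA, LP-1 with DMSO, U266 with DHA and U266 with DMSO, with 3 RNA-seq libraries each. All cells carried the genotype label WT and the tissue label bone marrow, and were grown in RPMI medium with fetal serum. The sources used here give no concentration of DHA. Whether replicates were separate cultures is not stated, and p-values therefore reflect only the spread among these libraries, which may be technical. Fewer cells of a kind and less RNA per cell cannot be told apart in such bulk samples.

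In myeloma, a translocation can place one of these genes under the enhancers of an immunoglobulin locus, which are highly active in plasma cells. The translocation t(4;14) brings the histone H3 lysine 36 methyltransferase NSD2 and the receptor tyrosine kinase FGFR3 under such control, and LP-1 is known to carry it. U266 is known to carry an immunoglobulin enhancer inserted next to CCND1. D cyclins bind CDK4 and CDK6, the kinases that phosphorylate the retinoblastoma protein and so free E2F factors to switch on DNA replication genes, while CDKN2C (p18INK4c) inhibits both kinases. MAF is a basic leucine zipper factor that raises CCND2, the integrin ITGB7 and the chemokine receptor CCR1 in myeloma cells.

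Promoter sequences from RefSeq (GRCh38.p14) were available for 7 of the 9 genes, in 12 windows of the 250 bases before a transcription start. Those of MAF and CDK6 are shown because these genes had the largest fall and the rise in LP-1, and that of CDK4 because its estimates had opposite signs in the lines. All run 5′ to 3′ on the minus strand, which these genes are read from. Capitals mark matches on either strand to any of 5 motifs, and matches may overlap. The cyclic AMP response element is spelled TGACGTCA and the E-box CACGTG. The CCAAT box is named by its letters. The TATA box was searched as TATAAA. The GC box was searched as GGGCGG.
MAF, chr16:79600738-79600987: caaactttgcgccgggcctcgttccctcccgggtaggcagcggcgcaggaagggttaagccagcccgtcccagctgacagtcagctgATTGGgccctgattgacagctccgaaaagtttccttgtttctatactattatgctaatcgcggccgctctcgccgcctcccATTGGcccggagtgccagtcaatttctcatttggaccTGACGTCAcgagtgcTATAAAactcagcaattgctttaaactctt
CDK6, chr7:92836574-92836823: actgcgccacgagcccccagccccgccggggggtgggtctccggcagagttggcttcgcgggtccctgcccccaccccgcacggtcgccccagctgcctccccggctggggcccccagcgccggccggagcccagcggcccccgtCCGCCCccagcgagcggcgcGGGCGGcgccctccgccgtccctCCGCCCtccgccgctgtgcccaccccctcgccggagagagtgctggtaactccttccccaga
CDK4, chr12:57752311-57752560: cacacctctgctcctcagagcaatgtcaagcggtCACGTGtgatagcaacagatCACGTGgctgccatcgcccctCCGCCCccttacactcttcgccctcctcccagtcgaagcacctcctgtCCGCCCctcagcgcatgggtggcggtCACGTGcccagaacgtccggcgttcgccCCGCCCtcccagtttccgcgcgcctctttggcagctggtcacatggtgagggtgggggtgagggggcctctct

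The MAF window held 1 cyclic AMP response element, 1 TATA box and 2 CCAAT boxes. The CDK6 window shown held 3 GC boxes, while the other CDK6 window, chr7:92833960-92834209, held 0 matches to the 5 motifs. The CDK4 window held 3 E-boxes and 3 GC boxes. Over 35116 windows of the same length in the table, 1.65% held the cyclic AMP response element, 10.7% the TATA box, 32.0% the CCAAT box, 42.6% the GC box and 6.34% the E-box. Further searches were for an AP-1 site (TGACTCA, in 4.20% of windows), a C/EBP-ATF site (TGATGNAA, 3.14%) and an E2F site (TTTCCCGC, 1.39%). Of the 12 windows, 1 of NSD2 held the E2F site and 0 held either of the other sites. Matches of letters are a description of these windows and do not show that a factor binds.

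The deposited values were FPKM, reads scaled to transcript length and library size, which allow levels of different genes to be compared within a library. The tables of the lines were made differently, so FPKM were not compared across lines. Steps of the low values gave 13.4 to 17.5 M reads per LP-1 library and 10.3 to 21.8 M per U266 library. In LP-1 the DMSO libraries differed in a way that followed transcript length. DMSO replicate 3 lay 0.22 above the mean of DMSO replicates 1 and 2 (median log2 difference) for genes with at most 2352 bases of exons, and at -0.31 for genes with 6860 or more. In U266 the shortest and longest genes are cut at 3271 and 7549 bases. For the shortest and longest genes DHA minus DMSO had medians of -0.19 and 0.20 in LP-1, against -0.03 and 0.06 in U266. The summed FPKM was 271277 to 274111 with DHA and 306658 to 325583 with DMSO in LP-1. In U266, DHA replicate 3 had 18399 genes above 0, against 14682 to 14992 in the other 5 libraries. Plasma cell markers, such as SDC1 and IRF4, were present in every group, 8 of 9 at 1 FPKM or more. They summed to 941 to 953 FPKM with DHA and 1017 to 1374 with DMSO in LP-1, and to 736 to 802 with DHA and 1099 to 1121 with DMSO in U266. Of 12 markers of other blood, endothelial and stromal cells, 1 (PECAM1) reached 1 FPKM in every LP-1 library, and they summed to 2.40 to 2.67 FPKM with DHA and 4.70 to 6.67 with DMSO. In U266 the 11 listed markers summed to 10.8 to 23.2 FPKM with DHA and 14.1 to 15.4 with DMSO, with the highest sum in DHA replicate 3.

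The 9 genes split into a shared set and a set found in 1 line. NSD2, CCND2, CCND3, CDK4, CDK6 and CDKN2C were above 1 FPKM in all 12 libraries, whereas FGFR3 and MAF were high in LP-1 alone and CCND1 in U266 alone. Levels are next given as percentiles, the share of the 18684 gene symbols common to both tables that lay below the gene in a library. FGFR3 stood at the 99.2 to 99.6 percentile over the 6 LP-1 libraries and the 16.5 to 40.9 percentile over the 6 U266 libraries. The percentile of a low gene depends on how many genes are above 0 in the library. The 16.5 was in U266 DHA replicate 3, with 18399 genes above 0, where FGFR3 stood at 0.454 FPKM. In U266 DHA replicate 1, 0.0401 FPKM of FGFR3 gave the 23.8 percentile. CCND1 stood at the 32.2 to 40.8 percentile in LP-1 and the 98.9 to 99.4 percentile in U266. MAF stood at the 88.2 to 94.7 percentile in LP-1 and the 0 to 35.5 percentile in U266. The remaining genes were closer in rank, with NSD2 at 88.2 to 92.9 (LP-1) and 81.5 to 83.4 (U266). CDK6 in LP-1 stood at 97.4 to 99.5, against 74.0 to 79.1 for U266. CCND2 stood at 95.2 to 97.8 (LP-1) and 97.8 to 98.7 (U266), and CDKN2C at 98.9 to 99.4 (LP-1) and 93.1 to 95.02 (U266). CDK4 stood at 93.7 to 96.5 (LP-1) and 91.1 to 92.9 (U266), and CCND3 at 57.0 to 62.4 (LP-1) and 53.1 to 57.5 (U266). Of these 6 genes, CCND3 alone had ranges that overlapped between the lines, and those of CCND2 nearly met, at 97.77 in LP-1 and 97.79 in U266. Percentiles are ranks of the same FPKM, so the different making of the tables can move them too. Small differences in rank between the lines cannot be told apart from it.

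**Figure D1:**
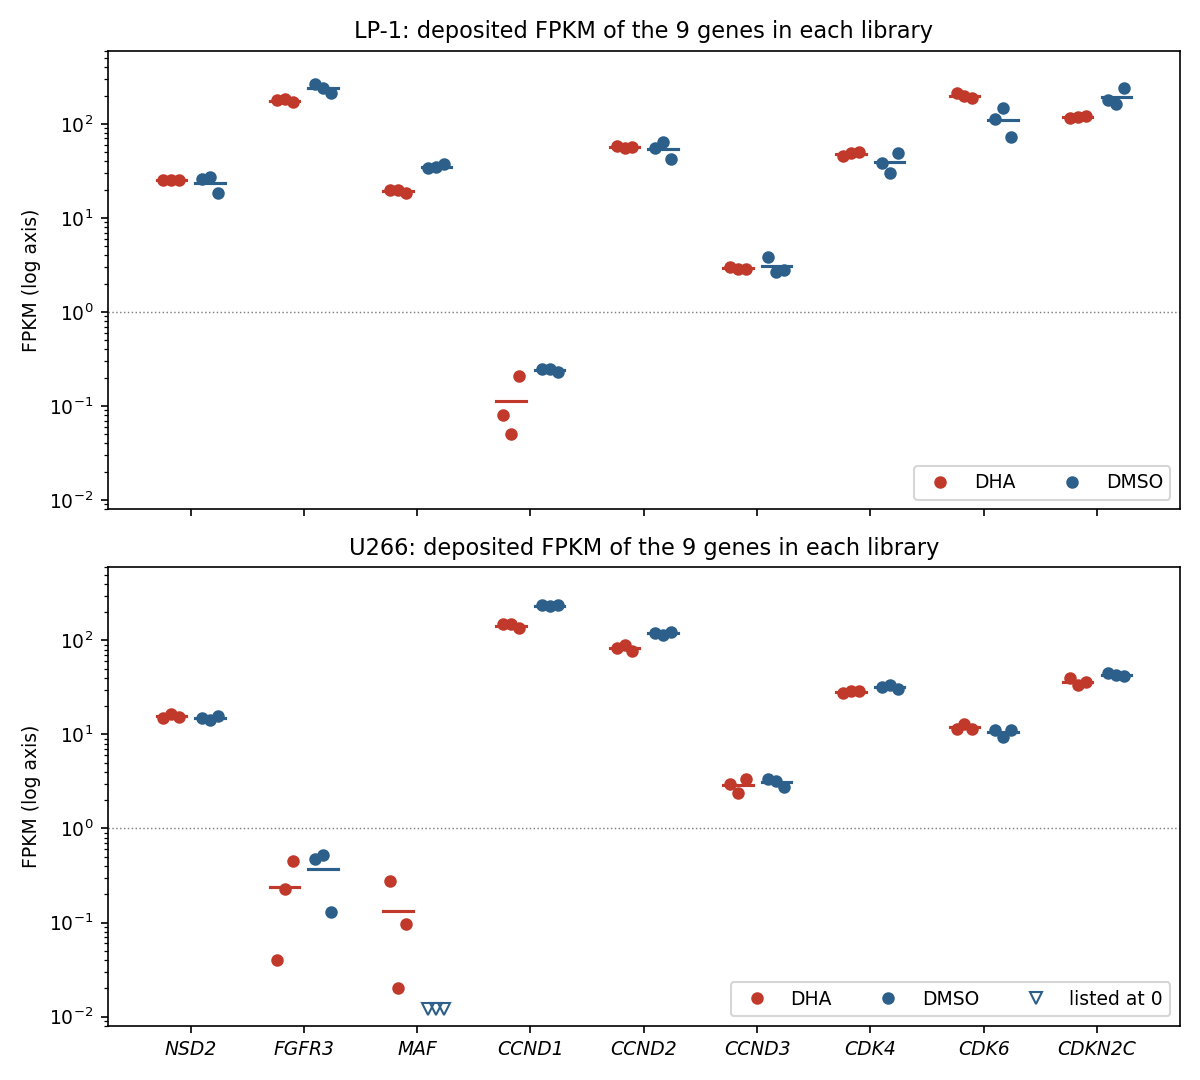
Deposited FPKM of the 9 genes in each library on a log axis, LP-1 above and U266 underneath, with DHA libraries in red on the left of each pair and DMSO libraries in blue on the right. Points are libraries, short lines are means of 3, open triangles are libraries listed at 0, and the dotted line is 1 FPKM. FGFR3 and MAF sit far above 1 FPKM in LP-1 and under it in U266, and CCND1 does the opposite.

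In LP-1 the order of levels changed at the top. With DHA the order was CDK6, FGFR3, CDKN2C, CCND2, CDK4, NSD2, MAF, CCND3 and CCND1, and no neighbours in it overlapped between libraries. With DMSO it was FGFR3, CDKN2C, CDK6, CCND2, CDK4, MAF, NSD2, CCND3 and CCND1, where the ranges of FGFR3 and CDKN2C, of CCND2 and CDK4, and of CDK4 and MAF overlapped. In U266 both groups had the order CCND1, CCND2, CDKN2C, CDK4, NSD2, CDK6, CCND3, FGFR3 and MAF. The only neighbours there whose ranges overlapped were FGFR3 and MAF with DHA.

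DHA against DMSO within a line was tested with limma on log2(FPKM + 1), with p-values adjusted by the Benjamini-Hochberg method over all genes tested and a threshold of 0.05. On this scale the change of a low gene is understated. Genes needed 1 FPKM or more in at least 3 of the 6 libraries, which left out CCND1 in LP-1 and FGFR3 and MAF in U266. Among the 8 genes tested in LP-1, 3 fell, 1 rose and 4 did not pass, with a median log2 change of 0.02. Over all 12514 genes tested in LP-1 the median was 0.01, 40.2% were called, 20% rose and 20.2% fell. Of the 7 genes tested in U266, 0 rose, 4 fell and 3 did not pass, with a median of -0.16. Over all 10422 genes tested in U266 the median was 0.02, 40.7% were called, 21.1% rose and 19.6% fell. DHA and DMSO libraries did not overlap for 4 of the 8 genes in LP-1 and 5 of the 7 in U266, against 58.8% and 51.5% of all tested genes. The LP-1 count of 4 called members dropped to 1 when any DHA replicate was left out and to 2 without DMSO replicate 1, and was 5 without DMSO replicate 3. The U266 count of 4 dropped to 2 without DMSO replicate 1 or DHA replicate 2, and was 4 without DHA replicate 3. When LP-1 libraries were set to equal totals with immunoglobulin and mitochondrial transcripts left out of the total, called rescaling here, this moved the median of all genes to 0.13 and the share of calls that were rises to 60.6%, against 49.8% as deposited.

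NSD2 and FGFR3 lie near each other on chromosome 4 (GRCh38, GENCODE v29), at 1871424 to 1982207 and 1793293 to 1808872, both on the plus strand. In LP-1 FGFR3 stood at 178, 183 and 171 FPKM with DHA, against 268, 240.0 and 211 FPKM with DMSO. Every DHA library was under every DMSO library. The means were 177 ± 5.95 and 239.5 ± 28.3 FPKM (SD, n = 3 each), and FGFR3 fell by 0.43 on the log2 scale (SE 0.11, limma adjusted p = 0.0250). Leaving out DMSO replicate 1 (adjusted p = 0.0819) or one of the DHA libraries, replicate 1 (0.0965), 2 (0.0838) or 3 (0.102) ended the call. It was also lost with quantile normalization (-0.21, adjusted p = 0.425), after rescaling (-0.28, 0.189) and with no filter (0.0643), and it held in 9 of 16 alternatives, with adjusted p from 0.00110 to 0.425. Without DMSO replicate 3 the change was -0.51.

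NSD2 in LP-1 stood at 25.6, 25.5 and 25.6 FPKM with DHA, against 26.0, 27.04 and 18.2 FPKM with DMSO. The DHA libraries were nearly equal and lay within the DMSO range, which DMSO replicate 3 widened. NSD2 averaged 25.6 ± 0.0529 and 23.8 ± 4.81 FPKM and did not pass (log2 change 0.12, 95% interval -0.24 to 0.48, limma adjusted p = 0.539). Its exons are the longest of the 9 genes, 19776 bases in all, and its estimate depended on how length was treated. With the length trend of each library removed, the log2 change turned to -0.22 and passed (adjusted p = 0.0345, 0.0345 to 0.657 over all alternatives), and without DMSO replicate 3 it was -0.05. The ratio of FGFR3 to NSD2 within a library averaged 6.93 ± 0.246 with DHA and 10.2 ± 1.34 with DMSO, and the groups did not overlap (exact permutation test, two-sided, p = 0.1). With 3 libraries against 3 this is the smallest p possible, and over the 18 ratios and sums computed here the Benjamini-Hochberg adjusted value of each p of 0.1 was 0.164. FGFR3 has 4848 bases of exons, and the length trend was not removed from its ratio to NSD2.

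In U266 NSD2 stood at 15.1, 16.5 and 15.4 FPKM with DHA, against 15.1, 14.2 and 15.5 FPKM with DMSO. The groups overlapped, and NSD2 did not pass (log2 change 0.06, 95% interval -0.07 to 0.20, limma adjusted p = 0.437). FGFR3 in U266 stood at 0.0401, 0.230 and 0.454 FPKM with DHA, or 2, 16 and 36.1 recovered reads. With DMSO it stood at 0.468, 0.521 and 0.128 FPKM, or 43.1, 55.2 and 9 reads. The reads summed to 54 with DHA and 107 with DMSO, each group holding libraries high and low, and with no filter limma gave a log2 change of -0.15 (adjusted p = 0.602).

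Genes around the t(4;14) partners were followed as a list of 8 neighbours on 4p16.3. In LP-1 1 of the 7 tested rose, 1 fell and 5 did not pass, and in U266 1 rose, 3 fell and 3 did not pass. Over all tested genes 20% rose and 20.2% fell in LP-1, and 21.1% rose and 19.6% fell in U266. The median log2 change of the neighbours was 0.09 in LP-1 and 0.08 in U266. In U266 the median was 0.03 with quantile normalization, and 0 neighbours rose with quantile normalization or trimmed mean scaling. LETM1, a mitochondrial ion exchanger, averaged 27.9 ± 0.688 FPKM with DHA and 22.9 ± 3.75 with DMSO in LP-1 and did not pass (limma adjusted p = 0.118), though it did without DMSO replicate 3 (0.15, adjusted p = 0.0374, 0.0374 to 0.263 over its alternatives). In U266 LETM1 fell to 11.2 ± 0.413 FPKM with DHA, against 15.0 ± 0.297 with DMSO (log2 change -0.40, limma adjusted p = 0.000386). The spindle protein TACC3 averaged 14.5 ± 0.396 FPKM with DHA and 16.29 ± 1.49 with DMSO in LP-1 (adjusted p = 0.188 by limma). In U266 TACC3 fell to 24.4 ± 1.28 FPKM with DHA, against 27.9 ± 0.669 with DMSO (-0.19, limma adjusted p = 0.0181), a call that ended without DMSO replicate 2 (0.0627, with 0.0106 to 0.0627 over its alternatives). The histone mRNA binding protein SLBP also fell in U266 (-0.27, limma adjusted p = 0.00235). In LP-1 MAEA, a ubiquitin ligase subunit, rose (0.36, limma adjusted p = 0.0295), and NELFA, a pausing factor of RNA polymerase II, fell (-0.29, 0.0210). The MAEA call ended without DMSO replicate 1 (adjusted p = 0.0936) or 2 (0.0536) or any DHA replicate (0.0977, 0.0983 and 0.0999), and moved to 0.16 with the length trend removed (0.478, over a range of 0.000794 to 0.478). The NELFA call ended without DMSO replicate 1 (adjusted p = 0.0703) or any DHA replicate (0.0872, 0.0646 and 0.0987), and moved to -0.16 after rescaling (0.240, over a range of 0.00899 to 0.240).

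MAF lies on chromosome 16 at 79585843 to 79600714, on the minus strand, and its promoter window was the 1 of 12 with a cyclic AMP response element. In LP-1 MAF stood at 19.98, 20.1 and 18.5 FPKM with DHA, against 33.7, 34.5 and 37.6 FPKM with DMSO. The groups were far apart relative to their spread. The means were 19.5 ± 0.884 and 35.2 ± 2.05 FPKM (SD, n = 3 each), and MAF fell by 0.82 on the log2 scale (SE 0.08, limma adjusted p = 0.000762). The call held in 16 of 16 alternatives, where the change ran from -0.92 to -0.68 and adjusted p from 0.000124 to 0.00814.

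In U266 MAF was listed at 0 in the 3 DMSO libraries and stood at 0.278, 0.0199 and 0.0961 FPKM with DHA. These values correspond to 20, 2 and 11 recovered reads with DHA, against 0 reads with DMSO, where 3 reads would have been 0.0197 to 0.0297 FPKM. That floor covers counting error only, and DHA replicate 2 lay under 3 reads. Of the low whole counts recovered, 75.5 to 79.2% were even in the U266 libraries other than DHA replicate 3. In U266 DHA replicate 3 the share was 52.1%, and in LP-1 it was 36 to 38%. Recovered reads in U266 may therefore not be independent of each other. Of 2934 genes at 0 in all U266 DMSO libraries, 122 (4.16%) were above 0 in all DHA libraries, and 2545 were above 0 in DHA replicate 3. With no filter limma gave a log2 change of 0.17 for MAF in U266 (adjusted p = 0.448).

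Of 5 known MAF targets in myeloma, 3 were tested in LP-1 and 2 in U266, and 0 rose in either line. CCND2, which MAF also raises, was not counted in this list. The log2 change of CCND2 was 0.09 in LP-1 (limma adjusted p = 0.673) and -0.52 in U266 (6.05e-05). In LP-1 the chemokine receptor CCR1 stood with MAF among the called falls, at 13.95 ± 0.823 FPKM with DHA and 45.2 ± 8.76 with DMSO (log2 change -1.61, limma adjusted p = 0.000737). DEPTOR, an inhibitor of mTOR signalling, fell to 456 ± 15.9 FPKM with DHA, against 589 ± 49.4 with DMSO (-0.37, limma adjusted p = 0.0377). The DEPTOR call ended without DMSO replicate 1 (adjusted p = 0.102) or any DHA replicate (0.154, 0.153 and 0.108), and its change turned to 0.08 with quantile normalization (0.434, over a range of 0.00732 to 0.434). ITGB7 did not pass in LP-1 (0.58, limma adjusted p = 0.0548), though with trimmed mean scaling 1 of the 3 rose, which was ITGB7. In U266, where MAF was near 0, ITGB7 fell to 8.003 ± 0.881 FPKM with DHA, against 10.7 ± 1.13 with DMSO (-0.37, limma adjusted p = 0.0102). The medians of the target list were -0.37 in LP-1 and -0.13 in U266. With quantile normalization the LP-1 median turned to 0.08 and 1 target fell.

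Among the relatives of MAF, called members were small MAF proteins, which lack a transactivation domain, and they rose. Of the same class, MAFK did not pass in LP-1 (log2 change -0.09, limma adjusted p = 0.567) or U266 (-0.09, 0.668). MAFF did not pass in LP-1 (-0.14, limma adjusted p = 0.404). MAFK was named after its values were seen. MAFG rose to 25.8 ± 0.419 FPKM with DHA, against 13.7 ± 1.33 with DMSO, in LP-1 (log2 change 0.88, limma adjusted p = 0.000912). In U266 MAFG rose to 20.6 ± 1.24 FPKM with DHA, against 13.8 ± 1.10 with DMSO (0.55, limma adjusted p = 0.000184), and MAFF rose to 6.39 ± 0.163, against 3.33 ± 0.195 (0.77, 5.26e-05). Of the tested family members 1 of 3 rose in LP-1 and 2 of 4 in U266, and 0 fell, with medians of -0.09 and 0.56. Over all tested genes 20% rose in LP-1 and 21.1% in U266.

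Of the D cyclins, U266 held CCND1 and CCND2 at high levels, and both fell with DHA. CCND1 (chromosome 11, 69641087 to 69654474, plus strand) stood at 148, 148 and 135 FPKM with DHA in U266, against 237, 230 and 238 FPKM with DMSO. Every DHA library was far under every DMSO library. The means were 144 ± 7.50 and 235 ± 4.44 FPKM (SD, n = 3 each), and CCND1 fell by 0.70 on the log2 scale (SE 0.05, limma adjusted p = 4.36e-06). CCND2 (chromosome 12, 4273772 to 4305350, plus strand) stood at 83.5, 88.5 and 77.3 FPKM with DHA in U266, against 121, 115 and 123 FPKM with DMSO. Here too the groups were apart. The means were 83.1 ± 5.63 and 119.5 ± 3.94 FPKM, and CCND2 fell by 0.52 (SE 0.06, limma adjusted p = 6.05e-05). Both calls held in 16 of 16 alternatives, with changes from -0.74 to -0.64 for CCND1 and from -0.57 to -0.47 for CCND2. Without DHA replicate 3, which stood apart in genes detected, they were -0.66 and -0.47.

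CCND3 (chromosome 6, 41934933 to 42050357, minus strand) was the lowest D cyclin of U266, at 2.95, 2.38 and 3.32 FPKM with DHA, against 3.36, 3.23 and 2.79 FPKM with DMSO. The groups overlapped, and CCND3 did not pass (log2 change -0.09, 95% interval -0.36 to 0.18, limma adjusted p = 0.584). The 3 D cyclins of U266 summed to 229.9 ± 12.3 FPKM with DHA and 358 ± 8.23 with DMSO (exact permutation test, two-sided, p = 0.1). CCND1 made up 62.6 ± 0.618% of this sum with DHA and 65.7 ± 0.278% with DMSO. CCND2 made up 36.1 ± 0.799% with DHA and 33.4 ± 0.349% with DMSO, and CCND3 1.26 ± 0.271% with DHA and 0.875 ± 0.0923% with DMSO. None of these shares overlapped between the groups, each with an exact permutation p of 0.1. The ratio of CCND1 to CCND2 averaged 1.74 ± 0.0545 with DHA and 1.97 ± 0.0288 with DMSO.

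In LP-1 CCND2 was the main D cyclin and did not pass the test. CCND2 stood at 57.6, 56.1 and 57.4 FPKM with DHA, against 55.8, 65.0 and 42.4 FPKM with DMSO. The DHA libraries were close together inside the DMSO range (log2 change 0.09, 95% interval -0.28 to 0.46, limma adjusted p = 0.673), and the sign turned without DMSO replicate 3 (-0.08). CCND3 stood at 3.03, 2.84 and 2.89 FPKM with DHA, against 3.85, 2.65 and 2.77 FPKM with DMSO. Its groups overlapped as well (log2 change -0.05, 95% interval -0.35 to 0.26, limma adjusted p = 0.773), and the sign turned after rescaling (0.06) and without DMSO replicate 1 (0.08).

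CCND1 in LP-1 stood at 0.08, 0.05 and 0.21 FPKM with DHA, against 0.25, 0.25 and 0.23 FPKM with DMSO. These values correspond to 5.8, 4.2 and 14.4 recovered reads with DHA and 16.2 to 17.1 with DMSO. DHA replicate 3 was close to the DMSO libraries, and with no filter limma gave a log2 change of -0.16 (adjusted p = 0.158). The 3 D cyclins of LP-1 summed to 60.04 ± 0.963 FPKM with DHA and 57.7 ± 11.4 with DMSO (exact permutation test, two-sided, p = 0.8). CCND2 made up 94.9 ± 0.128% of the sum with DHA and 94.1 ± 1.42% with DMSO (exact permutation p = 0.4).

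**Figure D2:**
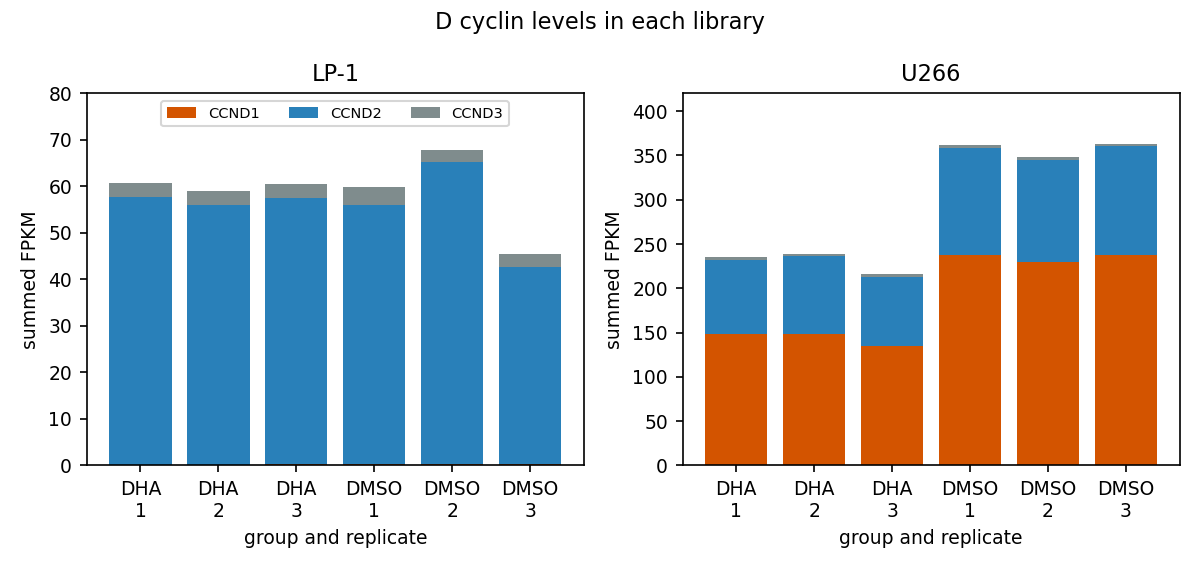
Summed FPKM of CCND1, CCND2 and CCND3 in each library, stacked, for LP-1 on the left and U266 on the right, with the 3 DHA libraries before the 3 DMSO libraries and each panel on its own scale. LP-1 bars are almost wholly CCND2. U266 bars are mostly CCND1, at the base, with a smaller CCND2 share stacked on it, and a mean sum of 229.9 FPKM with DHA and 358 FPKM with DMSO.

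CCND2 was the one member whose difference in DHA response between the lines passed the test. Across 8914 genes that passed the filter in both lines, fitted over all 12 libraries, 34.5% of genes had a DHA effect that differed between the lines, and 1 of the 6 tested members did. The CCND2 effect in LP-1 minus that in U266 was 0.61 on the log2 scale (SE 0.17, 95% interval 0.24 to 0.98, limma adjusted p = 0.0169), and it passed in 21 of 21 alternatives, with adjusted p from 0.00141 to 0.0455. The difference was 0.74 for CDK6 (95% interval 0.15 to 1.33, limma adjusted p = 0.0510), -0.46 for CDKN2C (-0.83 to -0.09, 0.0542) and 0.48 for CDK4 (0.07 to 0.89, 0.0643). Without LP-1 DMSO replicate 3 these 3 passed, at 0.46, -0.29 and 0.66 in that order (adjusted p = 0.0157, 0.01725 and 0.000269). CDK6 and CDKN2C also passed without LP-1 DMSO replicate 2 (adjusted p = 0.00247 and 0.009575). Over all alternatives adjusted p ran from 0.00247 to 0.105 for CDK6, from 0.00628 to 0.120 for CDKN2C and from 0.000269 to 0.128 for CDK4. For NSD2 the difference was 0.06 (-0.30 to 0.42, limma adjusted p = 0.802) and for CCND3 0.04 (-0.33 to 0.42, 0.871). NSD2 turned to -0.11 without LP-1 DMSO replicate 3, and to -0.25 with the length trend removed (adjusted p = 0.0314, 0.0314 to 0.907 over all alternatives). Rescaling moved the share of positive differences among the called genes to 68.1%, against 53.6% as deposited.

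**Figure D3:**
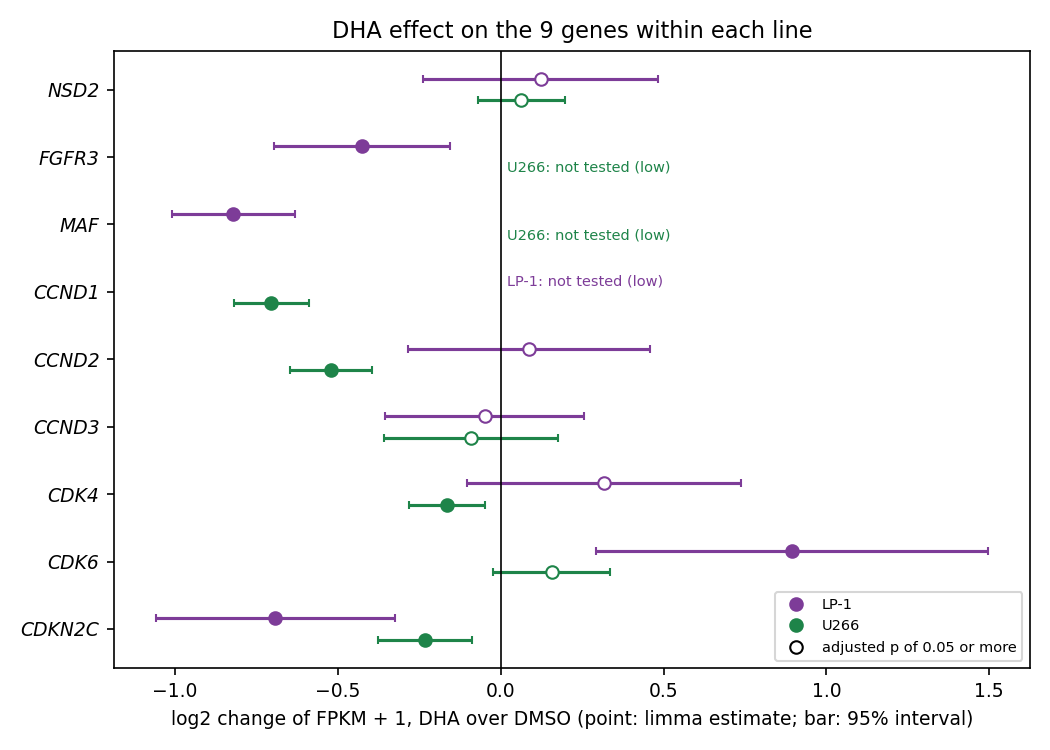
Log2 change of FPKM + 1 under DHA relative to DMSO for the 9 genes, LP-1 in purple above U266 in green. Points are limma estimates, bars are 95% intervals, and filled points have an adjusted p under 0.05. CCND2 lies near 0 in LP-1 at 0.09 and at -0.52 in U266, and CDK6 at 0.90 in LP-1 and 0.16 in U266.

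The kinase partners were both present in both lines. CDK6 (chromosome 7, 92604921 to 92836594, minus strand) stood at 212, 196 and 189 FPKM with DHA in LP-1, against 112, 149 and 72.3 FPKM with DMSO. Every DHA library was above every DMSO library, and the DMSO libraries spread widely. The means were 199 ± 11.5 and 111 ± 38.2 FPKM (SD, n = 3 each), and CDK6 rose by 0.90 on the log2 scale (SE 0.25, limma adjusted p = 0.0306). Leaving out DMSO replicate 1 (adjusted p = 0.0759) or one of the DHA libraries, replicate 1 (0.0993), 2 (0.0882) or 3 (0.0814), or using no filter (0.0776), ended the call, which held in 11 of 16 alternatives, with adjusted p from 0.00620 to 0.0993. CDK6 has 12260 bases of exons, the longest after NSD2, and its change was 0.64 with the length trend removed (adjusted p = 0.0131) and 0.62 without DMSO replicate 3 (0.00620). In U266 CDK6 stood at 11.5, 12.8 and 11.4 FPKM with DHA, against 11.1, 9.39 and 11.2 FPKM with DMSO. The groups did not overlap but lay close, and CDK6 did not pass (log2 change 0.16, 95% interval -0.02 to 0.34, limma adjusted p = 0.151).

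CDK4 (chromosome 12, 57747727 to 57756013, minus strand) stood at 46.0, 48.5 and 49.9 FPKM with DHA in LP-1, against 38.1, 30.02 and 49.5 FPKM with DMSO. DMSO replicate 3 reached the DHA range, and CDK4 did not pass (log2 change 0.32, 95% interval -0.10 to 0.74, limma adjusted p = 0.187). Without that library CDK4 passed (0.50, adjusted p = 0.00708), as it did after rescaling (0.46, 0.0230), over a range of 0.00708 to 0.389. In U266 CDK4 stood at 27.9, 28.9 and 28.7 FPKM with DHA, against 32.0, 33.8 and 30.4 FPKM with DMSO. Every DHA library was lower, the means were 28.5 ± 0.529 and 32.1 ± 1.70 FPKM, and CDK4 fell by 0.16 on the log2 scale (SE 0.05, limma adjusted p = 0.0302). This call held in 7 of 16 alternatives and ended without DMSO replicate 1 (adjusted p = 0.0754) or 2 (0.111) or DHA replicate 1 (0.0811) or 2 (0.0568), with 0.0228 to 0.111 over all of them. It was also lost with no filter (0.0516), quantile normalization (0.0537), no variance trend (0.0740) and voom (0.0592).

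CDKN2C, the inhibitor of both kinases (chromosome 1, 50960745 to 50974633, plus strand), was called lower in both lines. In LP-1 it stood at 116, 118 and 120.15 FPKM with DHA, against 179, 163 and 241 FPKM with DMSO. The DHA libraries were close together and all under the DMSO libraries. The means were 118 ± 1.99 and 194 ± 41.3 FPKM (SD, n = 3 each), and CDKN2C fell by 0.69 on the log2 scale (SE 0.15, limma adjusted p = 0.0138). The call ended without DHA replicate 1 (adjusted p = 0.0583), 2 (0.0566) or 3 (0.0532), held in 13 of 16 alternatives over a range of 0.000581 to 0.0583, and was -0.53 without DMSO replicate 3. In U266 CDKN2C stood at 39.7, 33.7 and 36.3 FPKM with DHA, against 45.3, 42.6 and 41.3 FPKM with DMSO. The groups were apart here too. The means were 36.6 ± 3.03 and 43.1 ± 2.01 FPKM, and CDKN2C fell by 0.23 (SE 0.06, limma adjusted p = 0.0157). That call held in 12 of 16 alternatives and ended without DMSO replicate 1 (adjusted p = 0.0641) or one of the DHA libraries, replicate 2 (0.0604), with no filter (0.0566) and with no variance trend (0.0504), over a range of 0.00537 to 0.0641.

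Inhibitor and kinase transcripts were also compared within each library. In LP-1 CDK4 and CDK6 summed to 247 ± 9.50 FPKM with DHA and 150.2 ± 28.5 with DMSO. CDKN2C relative to that sum averaged 0.479 ± 0.0260 with DHA and 1.36 ± 0.553 with DMSO, without overlap (exact permutation test, two-sided, p = 0.1). The DMSO libraries gave 1.19, 0.911 and 1.98, highest in DMSO replicate 3, which differed by transcript length. CDKN2C has 3318 bases of exons and CDK6 12260, and the length trend in LP-1 was not removed from this ratio. In U266 the kinases summed to 40.4 ± 1.19 FPKM with DHA and 42.7 ± 0.894 with DMSO, and CDKN2C relative to the sum averaged 0.907 ± 0.1003 and 1.01 ± 0.0345 (exact permutation p = 0.3). The ratio of CDK6 to CDK4 averaged 4.15 ± 0.417 with DHA and 3.12 ± 1.75 with DMSO in LP-1, where the groups overlapped, and 0.417 ± 0.0237 and 0.332 ± 0.0479 in U266, where they did not.

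Of the other CDK inhibitors, 1 of 5 tested rose and 2 fell in LP-1, while 2 of 5 rose and 0 fell in U266, with median log2 changes of -0.41 and 0.10. Over all tested genes 40.2% were called in LP-1 and 40.7% in U266. In LP-1 CDKN1C (p57), an inhibitor of cyclin E and A kinases, fell to 10.1 ± 0.277 FPKM with DHA, against 25.0 ± 7.15 with DMSO (log2 change -1.19, limma adjusted p = 0.00374). CDKN2B (p15INK4b), of the same family as CDKN2C, rose there to 5.80 ± 0.432 FPKM with DHA, against 2.89 ± 0.214 with DMSO (0.81, limma adjusted p = 0.00119). The p53 target CDKN1A (p21) fell in LP-1 (-0.53, limma adjusted p = 0.00454) and rose in U266 (0.40, 0.000334). CDKN1B (p27) averaged 31.2 ± 1.504 FPKM with DHA and 31.7 ± 3.25 with DMSO in LP-1 and did not pass (adjusted p = 0.880 by limma). In U266 CDKN1B rose to 55.8 ± 1.67 FPKM with DHA, against 41.7 ± 1.604 with DMSO (0.41, limma adjusted p = 9.95e-05). CDKN2A, which encodes p16INK4a and p14ARF, did not pass in LP-1 (-0.41, limma adjusted p = 0.0758) or U266 (0.10, 0.480). In LP-1 it passed without DMSO replicate 1 (adjusted p = 0.0492) and with quantile normalization (0.0464), over a range of 0.0464 to 0.214. In U266 CDKN2B (-0.06, adjusted p = 0.698 by limma) and CDKN2D (-0.02, 0.862) did not pass, and CDKN2D stood at 0.68 to 0.89 FPKM with DHA and 0.98 to 1.24 with DMSO in LP-1, too low to be tested.

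Downstream of the D cyclins, cyclin E transcripts were called lower with DHA in both lines. CDK2 was called lower in LP-1, and in U266 its call held in 7 of 16 alternatives. At the G1/S step 25 partners were tested, and 8 rose, 8 fell and 9 did not pass in LP-1, and 7 rose, 11 fell and 7 did not pass in U266, with medians of -0.04 and -0.13. With quantile normalization the LP-1 median was -0.08 and 4 partners rose in U266. Over all tested genes 40.2% were called in LP-1 and 40.7% in U266. CDK2, the kinase of cyclin E, fell in LP-1 to 10.3 ± 0.483 FPKM with DHA, against 20.8 ± 2.17 with DMSO (log2 change -0.95, limma adjusted p = 0.000866). In U266 CDK2 had a smaller estimate (-0.28, limma adjusted p = 0.0461), its groups overlapped, and the call ended without any 1 of DMSO replicates 1, 2 and 3 (adjusted p = 0.121, 0.116 and 0.0613) or DHA replicates 1 and 2 (0.146 and 0.141), over a range of 0.00125 to 0.153. CCNE1 fell to 1.45 ± 0.312 FPKM with DHA in LP-1, against 3.06 ± 0.310 with DMSO (-0.74, limma adjusted p = 0.00549). In U266 CCNE1 fell to 4.93 ± 0.524 FPKM with DHA, against 10.1 ± 0.448 with DMSO (-0.90, limma adjusted p = 1.98e-05). CCNE2 fell in LP-1 (-0.47, limma adjusted p = 0.0177) and U266 (-0.74, 3.16e-05). The LP-1 call of CCNE2 ended without DMSO replicate 1 (adjusted p = 0.0652) or one of the DHA libraries, replicate 1 (0.0728) or 3 (0.0746) and after rescaling (0.122), over a range of 0.00152 to 0.122. Differences between the lines in these genes are not reported here.

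The retinoblastoma gene RB1 rose in LP-1 to 10.8 ± 0.3002 FPKM with DHA, against 8.06 ± 1.31 with DMSO (log2 change 0.39, limma adjusted p = 0.0409). The RB1 call ended without DMSO replicate 1 (adjusted p = 0.0790) or one of the DHA libraries, replicate 1 (0.133), 2 (0.112) or 3 (0.109), over a range of 0.00828 to 0.133. In U266 RB1 averaged 1.72 ± 0.243 FPKM with DHA and 1.97 ± 0.276 with DMSO and did not pass (adjusted p = 0.485 by limma). Its relative RBL1 rose in LP-1 to 9.09 ± 0.151 FPKM with DHA, against 5.11 ± 1.498 with DMSO (0.76, limma adjusted p = 0.0203), a call that ended without DHA replicate 1 (0.0650), 2 (0.0689) or 3 (0.0707) within a range of 0.000550 to 0.0707. E2F2, an activating E2F factor, fell in U266 to 31.8 ± 1.28 FPKM with DHA, against 62.3 ± 1.75 with DMSO (-0.95, limma adjusted p = 3.49e-07).

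The 15 E2F target genes followed include genes of the replication machinery and of nucleotide synthesis. Of these 15, 1 rose, 10 fell and 4 did not pass in U266, with a median of -0.47. Over all tested genes 21.1% rose and 19.6% fell in U266, and 20% rose and 20.2% fell in LP-1. The LP-1 counts of the targets were 6 risen, 3 fallen and 6 not passing, with a median of 0.23. The 3 that fell there were TK1 (log2 change -0.71, limma adjusted p = 0.0155), CDK1 (-0.70, 0.0112) and TYMS (-0.29, 0.0368). These 3 were named after their values were seen. UHRF1, which maintains DNA methylation at replication, fell in U266 to 13.8 ± 1.30 FPKM with DHA, against 25.6 ± 0.944 with DMSO (log2 change -0.85, limma adjusted p = 9.52e-06). In LP-1 UHRF1 rose (0.59, limma adjusted p = 0.00233). MCM5, a subunit of the replicative helicase, fell in U266 to 19.6 ± 0.347 FPKM with DHA, against 31.7 ± 0.654 with DMSO (-0.66, limma adjusted p = 3.70e-06). In LP-1 MCM5 rose to 18.2 ± 0.495 FPKM with DHA, against 10.2 ± 0.825 with DMSO (0.78, limma adjusted p = 0.000995). CDC6, which loads that helicase, rose in LP-1 to 28.8 ± 0.9702 FPKM with DHA, against 10.1 ± 0.312 with DMSO (1.43, limma adjusted p = 0.000100). CDC6 was the 1 target that rose in U266 (0.28, limma adjusted p = 0.0009699) and was singled out after its value was seen. With quantile normalization 2 targets rose in U266.

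**Figure D4:**
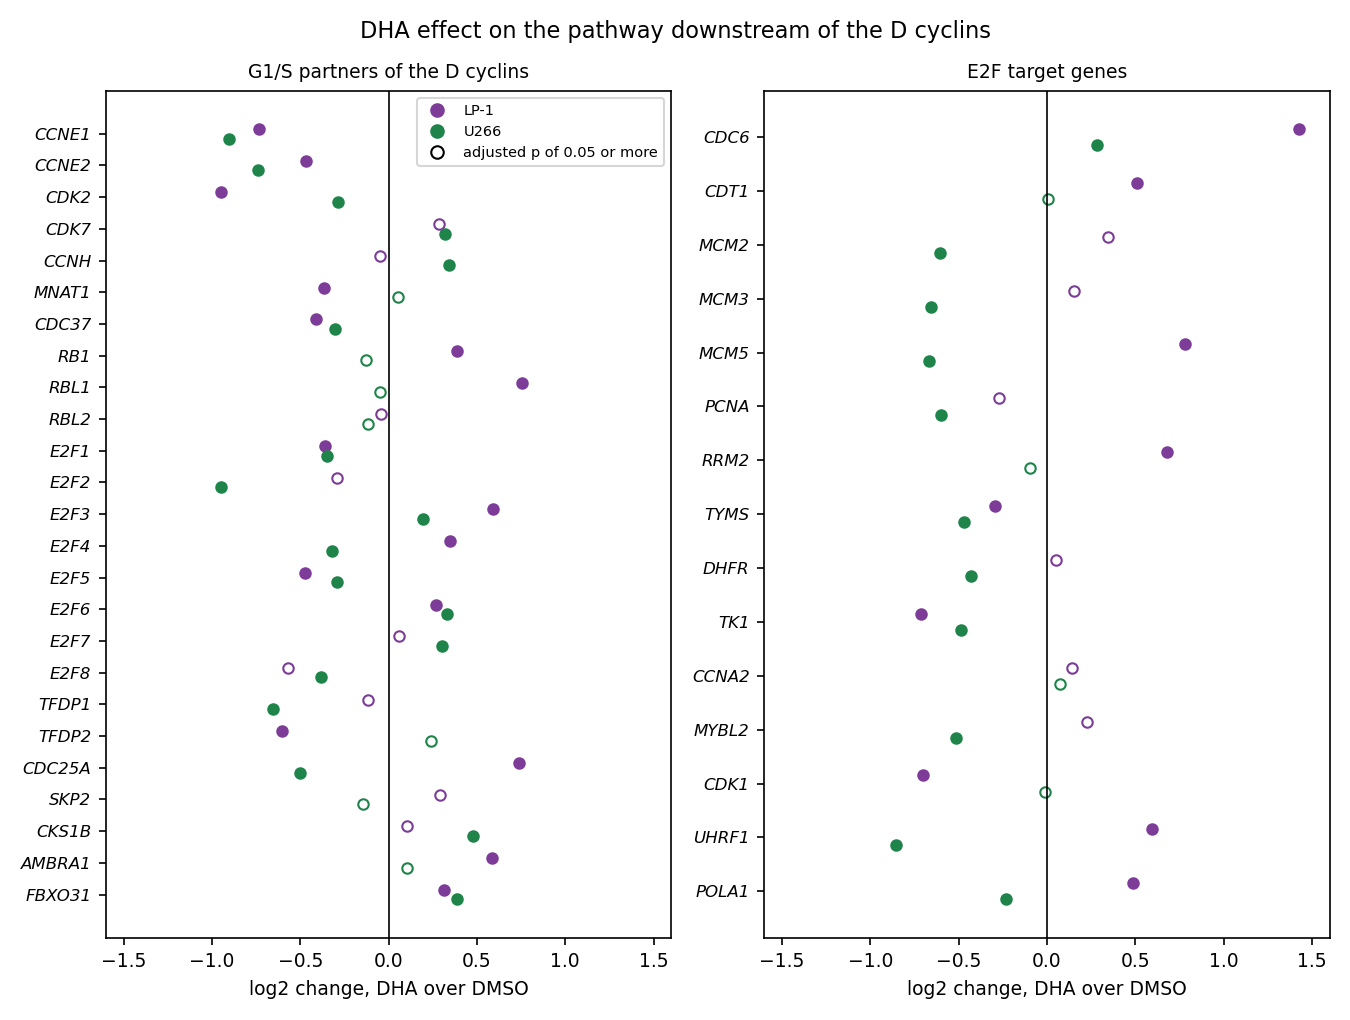
Log2 change under DHA relative to DMSO of the 25 G1/S partners of the D cyclins on the left and of 15 E2F target genes on the right, LP-1 in purple above U266 in green. Filled points have a limma adjusted p under 0.05. In U266 10 of the 15 E2F targets lie under 0 as filled points, against 3 in LP-1.

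The other immunoglobulin translocation partners tested were MYC and IRF4. MYC fell in U266 to 2.60 ± 0.684 FPKM with DHA, against 10.0 ± 0.681 with DMSO (log2 change -1.63, limma adjusted p = 7.57e-06). In LP-1 MYC rose to 284 ± 11.5 FPKM with DHA, against 207 ± 23.3 with DMSO (0.46, limma adjusted p = 0.0204), a call that ended without DHA replicate 1 (0.0934), 2 (0.0879) or 3 (0.0646) within a range of 0.00231 to 0.0934. IRF4 rose in LP-1 (1.66, limma adjusted p = 0.000513) and averaged 179 ± 7.41 FPKM with DHA and 179 ± 6.11 with DMSO in U266 (95% interval of the log2 change -0.11 to 0.11, limma adjusted p = 0.998). IRF4 is a factor that plasma cells depend on.

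Around CCND1 on 11q13, 4 of 5 tested neighbours rose and 1 fell in LP-1, where CCND1 itself was near 0, with a median of 0.44. Over all tested genes 20% rose and 20.2% fell in LP-1, and 21.1% rose and 19.6% fell in U266. The list itself was not tested. In U266, 1 of 6 rose and 5 did not pass, with a median of 0.09, which turned to -0.01 with quantile normalization, where 1 rose and 1 fell. PPFIA1, a scaffold of cell adhesion, rose in U266 to 7.23 ± 0.308 FPKM with DHA, against 4.98 ± 0.0778 with DMSO (log2 change 0.46, limma adjusted p = 0.000701). In LP-1 PPFIA1 rose as well (0.71, limma adjusted p = 0.0231), a call that ended without DMSO replicate 1 (0.0638) or DHA replicate 1 (0.0787), 2 (0.0741) or 3 (0.0708) within a range of 0.00498 to 0.0787. The death receptor adaptor FADD rose in LP-1 to 14.1 ± 1.04 FPKM with DHA, against 9.52 ± 0.679 with DMSO (0.52, limma adjusted p = 0.00577). MYEOV, a neighbour of CCND1 named for its overexpression in myeloma, stood at 0.309, 0.406 and 1.64 FPKM with DHA in U266, against 1.40, 1.68 and 1.17 FPKM with DMSO. DHA replicate 3 lay within the DMSO values and the other DHA replicates far under them (log2 change -0.51, limma adjusted p = 0.139). Without DHA replicate 3 MYEOV passed (-0.83, adjusted p = 0.000883), as it did with quantile normalization (-0.77, 0.0141), over a range of 0.000883 to 0.360.

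Genes that act with FGFR3 or beside NSD2 changed in both directions. Of the FGF receptor and adaptor list, 1 of 8 tested rose, 1 fell and 6 did not pass in LP-1, and 2 of 9 rose, 2 fell and 5 did not pass in U266, with medians of 0.07 and 0.03. In U266 1 rose with trimmed mean scaling, where the median was -0.0029, and 0 rose with quantile normalization. Over all tested genes 40.2% were called in LP-1 and 40.7% in U266. The decoy receptor FGFRL1 fell in LP-1 to 1.12 ± 0.0929 FPKM with DHA, against 3.03 ± 0.374 with DMSO (log2 change -0.92, limma adjusted p = 0.00126). The adaptor FRS2, which links FGF receptors to RAS signalling, rose in LP-1 (0.55, limma adjusted p = 0.0234), a call that ended without DMSO replicate 1 (0.0637) or DHA replicate 1 (0.0888), 2 (0.0631) or 3 (0.0774) within a range of 0.00801 to 0.0888. In U266 its relative FRS3 rose (0.48, limma adjusted p = 0.0201), a call that ended without DMSO replicate 1 (0.0558) or 3 (0.0632) within a range of 0.0145 to 0.0836, and the adaptor GAB1 fell (-0.37, 0.00166). FGFR1 averaged 0.21 ± 0.0265 FPKM with DHA and 0.113 ± 0.0115 with DMSO in LP-1, and 1.48 ± 0.710 and 0.987 ± 0.156 in U266, where it did not pass (adjusted p = 0.290 by limma).

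Of 18 enzymes and readers of histone H3 lysine 36 and 27 methylation, 5 rose, 3 fell and 10 did not pass in LP-1, and 10 rose, 3 fell and 5 did not pass in U266, with medians of 0.36 and 0.21. Exon length was not taken into account in these medians. Genes with 6860 or more bases of exons had a median of 0.20 in LP-1. Over all tested genes 20% rose and 20.2% fell in LP-1, and 21.1% rose and 19.6% fell in U266. The demethylase KDM4A rose in LP-1 to 15.2 ± 0.446 FPKM with DHA, against 6.19 ± 0.791 with DMSO (log2 change 1.18, limma adjusted p = 0.000506). In U266 KDM4A rose to 8.58 ± 1.13 FPKM with DHA, against 4.54 ± 0.650 with DMSO (0.79, limma adjusted p = 0.000345). The lysine 27 demethylase KDM6B rose in U266 (0.93, limma adjusted p = 0.000908), and the DNA methyltransferase DNMT3A fell in LP-1 (-0.92, 0.00266). Of the NSD2 paralogs in U266, NSD1 fell (-0.23, limma adjusted p = 0.0148), a call that ended without DMSO replicate 1 (0.0620) or 3 (0.0579) within a range of 0.00355 to 0.0620, and NSD3 rose (0.31, 0.00261). In LP-1 NSD1 (0.71, limma adjusted p = 0.0944) and NSD3 (0.40, 0.139) did not pass. NSD1 passed there without DMSO replicate 2 (0.97, adjusted p = 0.0263) or 3 (0.37, 0.0359), over a range of 0.0263 to 0.211, and NSD3 without DMSO replicate 2 (0.0334, over 0.0334 to 0.307).

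The genes most like the called member of largest change in each line were found by the smallest root mean square difference of centred log2(FPKM + 1) over the 6 libraries. For CDK6 in LP-1, among 7493 genes, these were UBN2, SETD5 and AFF4, with differences of 0.0338, 0.0353 and 0.0362. UBN2 averaged 6.49 ± 0.381 FPKM with DHA and 3.04 ± 1.39 with DMSO. A wide DMSO spread like that of CDK6 follows from the choice of UBN2 by its profile over these libraries. For CCND1 in U266, among 7304 genes, they were PM20D2, MCM4 and CLPTM1L, with differences of 0.0244, 0.0270 and 0.0295. PM20D2 averaged 20.9 ± 1.25 FPKM with DHA and 34.1 ± 0.274 with DMSO, and CLPTM1L 64.1 ± 4.18 and 105 ± 2.10.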

How the data were processed

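RNA-seq of 12 libraries was analysed from the tables the authors deposited, which hold FPKM, per the file headers, with LP-1 and U266 in separate tables. Both hold human genes, whereas GRCm38 and mm10, which are mouse builds, stand in the submitters' processing notes. No aligner or counter is named in the sources used here. LP-1 Ensembl IDs were matched to symbols through the supplied name tables, and lengths and positions came from GENCODE v29. Values of log2(FPKM + 1) were fitted with limma 3.58.1 in R 4.3.3 (lmFit, eBayes with a variance trend), two-sided, within each line and as the difference between lines; the fits were tested on simulated data. Exact permutation tests used scipy 1.17.1. Depth was recovered by matching low FPKM to whole reads at GENCODE v29 exon lengths, and 93.5 to 95.9% of low values lay within 0.1 read of a whole number. FPKM are relative to library and length, so that changes in total RNA cannot be seen.

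Alternatives changed the pseudocount to 0.1, dropped the filter, required a mean FPKM of 5 or more, or used trimmed mean scaling, quantile normalization, rescaling without immunoglobulin and mitochondrially encoded genes, no variance trend, a replicate block, each library left out, and 2 added after seeing the data, voom on recovered reads (5106 genes called in LP-1 and 4503 in U266) and removal of the exon length trend. Replicate numbers did not pair samples. The members and gene lists were chosen with earlier results of these data known. Named genes were the 9 members, the 2 called genes of largest change in each list and line, 18 fixed genes, of which 1 is not reported here, and 3 genes of most similar profile per line. Calls of list genes are reported as lost only for libraries left out and settings named beside them.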

Additional observations from a re-analysis of the deposited data

Results flagged for a closer look

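The DHA effect on CCND2 differed between the lines by 0.61 on the log2 scale (LP-1 minus U266, limma adjusted p = 0.0169). CCND2 had a log2 change of 0.09 in LP-1, where the groups overlapped, and of -0.52 in U266, where all 3 DHA libraries lay under all 3 DMSO libraries. The difference was 0.44 without LP-1 DMSO replicate 3 and 0.56 without U266 DHA replicate 3. IC50 doses were set per line, so line and dose cannot be told apart.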

How the results depend on the processing

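With 1 library left out at a time, the genes called ran between 2783 and 6745 for LP-1, 3417 and 4294 for U266, and 2314 and 4161 for the difference between the lines, and the members called from 1 to 5, 2 to 4 and 1 to 4. A mean of at least 5 FPKM gave 3034 genes in LP-1 and 2017 for the difference, with fewer genes tested. With no filter 2 members were called in LP-1, 2 in U266 and 3 for the difference, and with no variance trend 2 in U266. For the difference 2 members were called with trimmed mean scaling, 3 with quantile normalization, 2 after rescaling and 5 with the exon length trend removed. With a replicate block 4559, 3891 and 2880 genes were called in LP-1, in U266 and for the difference, and 3 members for the difference, CDK6 (adjusted p = 0.0371) and CDKN2C (0.0442) joining CCND2; CDK4 in U266 was lost (0.0518). Among list genes the replicate block ended the calls of DEPTOR (adjusted p = 0.0856), NELFA (0.0656) and RB1 (0.0527) in LP-1 and of CDK2 (0.0597) and COL1A1 (0.0520) in U266. Samples of the same number share only a number: their deviations correlated from 0.02 up to 0.18 for LP-1 and between -0.08 and -0.02 for U266.

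Signs of member changes turned in these alternatives only where the change had not passed. Leaving out 1 library, log2 changes ran in LP-1 from -0.0493 to 0.222 for NSD2, -0.0783 to 0.224 for CCND2 and -0.126 to 0.0793 for CCND3, in U266 from -0.171 to 0.0052 for CCND3, and for the difference from -0.11 to 0.16 for NSD2 and -0.0548 to 0.171 for CCND3. Rescaling turned CCND3 in LP-1 to 0.0584. Removing the exon length trend turned NSD2 to -0.22 in LP-1 and -0.25 for the difference, and CCND2 in LP-1 to -0.0196; the causes were not tested. Voom, fitted within lines, called CDK6 higher in U266 (0.20, adjusted p = 0.0422). Depth limits MAF and FGFR3 in U266 and CCND1 in LP-1, which rest on at most 55.2 reads in a library.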

Other observations

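Plasma cell markers were followed beside the 9 genes. Of 8 tested, 5 fell and 2 rose in LP-1, with a median log2 change of -0.64, and 5 fell and 0 rose in U266, with a median of -0.32. Over all tested genes 20.2% fell in LP-1 and 19.6% in U266. The 2 that rose in LP-1 were IRF4 (1.66, limma adjusted p = 0.000513) and PRDM1 (0.68, 0.0236). In U266 IRF4 did not pass (limma adjusted p = 0.998) and PRDM1 was called lower (-0.19, 0.0287). PRDM1 was named after its values were seen. SDC1, the syndecan that marks plasma cells, fell in LP-1 to 5.16 ± 0.484 FPKM with DHA, against 30.9 ± 1.72 with DMSO (log2 change -2.37, limma adjusted p = 4.93e-05). In U266 SDC1 fell to 88.4 ± 6.02 FPKM with DHA, against 192 ± 5.15 with DMSO (-1.11, limma adjusted p = 3.10e-07). POU2AF1, a coactivator of immunoglobulin transcription, fell in U266 to 29.4 ± 0.460 FPKM with DHA, against 55.1 ± 1.21 with DMSO (-0.88, limma adjusted p = 3.05e-07). In LP-1 POU2AF1 was called lower as well (-0.88, limma adjusted p = 0.00225). Among markers of other cells, PECAM1, which plasma cells can also express, fell in LP-1 (-1.23, limma adjusted p = 0.000912), and HBB fell in U266 (-0.54, 0.000443). Of the 3 such markers tested in U266, 2 rose and 1 fell, and with trimmed mean scaling or quantile normalization 0 rose. CD8A was called higher in U266 (0.45, limma adjusted p = 0.0473) and was named after its value was seen. COL1A1 was called higher in U266 (0.51, limma adjusted p = 0.0491), and this call held in 5 of 15 alternatives, over a range of 0.0107 to 0.623. Whether these changes bear on the 9 genes was not tested.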
